A study of Mus musculus with 177 samples.

Results

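In brain of newborn mice, 100% oxygen after hypoxia was compared with air after hypoxia. The arrays were chosen by title: 11 brain arrays of mice given 100% oxygen after hypoxia (H100) and 9 of mice given air after hypoxia (H21), 20 of the 177 arrays in the series. The study exposed C57BL/6 mice at postnatal day 7 to an inspired oxygen fraction of 0.08 for 120 min. The H100 mice then breathed 100% oxygen for 30 min and the H21 mice 21% oxygen, which is air, and both were kept in air for a further 150 min before the brain was taken. No allele or drug differs between the groups, and the mice of both share strain, age and hypoxia. Groups without hypoxia breathed air for the first 120 min and then 100% oxygen (N100, 9 brain arrays) or air (N21, 9), and further hypoxia groups received 40% (H40, 10) or 60% oxygen (H60, 11). The labels name brain without a region, and they number the arrays without naming the animal, its litter or its sex. The p-values therefore measure the spread between these arrays, which were taken as separate mice.

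Reoxygenation is the return of oxygen after a period without enough of it. Cells short of oxygen stabilise hypoxia-inducible factor (HIF), which turns on genes of glycolysis and vessel growth, and the return of oxygen produces reactive oxygen species that cells meet with antioxidant enzymes, with heme oxygenase and with metallothioneins, small metal-binding proteins. In brain, injury by lack of oxygen is also known for glutamate release and for activation of microglia. Whether newborns should be resuscitated with pure oxygen or with air is the question that this comparison addresses at the level of transcripts.

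Gene expression was measured on Affymetrix Mouse Gene 1.0 ST arrays, and values are on a log2 scale, so that a difference of 1 is a doubling. One probe set stood for each of 19937 genes. Differences are H100 minus H21 from a linear model (limma) of 58 brain arrays in 6 groups with a term for the column block, errors given as ± are standard errors of that fit unless marked SD, and a gene was called at a Benjamini-Hochberg adjusted p under 0.05. The column block is the place of an array in the deposited table, in its first columns (6 H100 and 6 H21 arrays) or in the later ones (5 H100 and 3 H21 arrays). What it stands for is not given in the sources used here. By Xist and the Y-linked genes, 6 H100 and 4 H21 arrays were of female mice. All 20 arrays correlated best with brain, and the mean of 30 neuron genes ran from 9.42 to 9.95 in them, against 5.11 to 5.70 in lung arrays and 7.78 to 8.33 in eye arrays. An array labelled H40 replicate 7 correlated best with eye (r = 0.962 across genes, against 0.875 with brain) and was left out of the fit.

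Certain arrays stood apart. The array labelled H100 replicate 6 went against its label in the genes that hypoxia moved, as described below, and the results are given with and without it. For each array the median correlation to the other brain arrays of all 6 groups was taken. Within H21, replicates 1 and 8 had the lowest, 0.9812 and 0.9732, against 0.9878 to 0.9915 in the other 7 H21 arrays. Other groups held arrays as low, among them H40 replicate 10 (0.9713) and N21 replicate 7 (0.9715). Results that depend on H21 replicates 1 and 8 are given without them too. In H100 the lowest were replicates 8 (0.9838) and 9 (0.9834), against 0.9874 to 0.9918 in the other H100 arrays. They were left out singly and with all the later columns, but not together on their own.

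No gene was called between H100 and H21 brains. Of 19937 genes, 0 passed the adjusted threshold (0% of those tested), and the smallest adjusted p in the limma fit was 0.81. At an unadjusted p under 0.05 stood 1145 genes, of which 430 were higher (2.16% of all genes) and 715 lower (3.59%) in H100 brains. The excess of lower genes was not seen among brighter genes. With the dimmest 40% of genes left out, 337 of 11963 genes were higher and 322 lower at that threshold. Without H100 replicate 6 the count of called genes was 0 again, the smallest adjusted p was 0.92, and 843 genes had an unadjusted p under 0.05. The unadjusted count moved by more than 1.5 times when H100 replicate 8 (702), H100 replicate 9 (697) or H21 replicate 8 (731) was left out, and it was 510 without H21 replicates 1 and 8 together.

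The intervals show how large a difference could have escaped. The 95% confidence interval of the difference lay within 0.5 either way, a 1.41-fold change, for 96.9% of genes with all arrays and for 96.6% without H100 replicate 6. It lay within 0.25, a 1.19-fold change, for 43.3% of genes. Only 6 genes had an estimated difference of at least 0.5, and 3 of them were Xist and the Y-linked Uty and Eif2s3y, which follow the sex of the mice. The other 3, named after their values were seen, were the homeobox gene Hoxa5 (0.60 ± 0.45) and the microRNA probe sets Mir381 (0.59 ± 0.19) and Mir487b (0.55 ± 0.21).

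Genes that hypoxia moved in brain were examined next. They were chosen by a comparison of other groups, as genes called between H40 and H60 together and N21 and N100 together. The means of H100 and H21 had no part in that comparison. Their arrays were in the same fit and so shared in its estimates of the spread and the column block. That comparison called 7 genes (0.0351% of those tested), all higher after hypoxia: Mt2 and Mt1, which encode metallothioneins, Hmox1, the inducible heme oxygenase that breaks down heme, Lcn2, a secreted protein that binds bacterial iron carriers, Ccl12, a chemokine for monocytes, A2m, a protease inhibitor of plasma, and Ms4a4a, a membrane protein of macrophages. The mean of each gene in H100 brains and in H21 brains was above its mean in N100 and in N21, and none was called between H100 and H21.

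Mt2 had log2 levels from 9.97 to 12.09 in H100 brains (median 11.41, n = 11) and from 11.01 to 12.36 in H21 brains (median 11.64, n = 9). The ranges overlapped, 3 H100 arrays lay below every H21 array, and the lowest was H100 replicate 6. The difference was -0.33 ± 0.23 (95% interval -0.79 to 0.13, adjusted p = 0.82, limma), and it was -0.19 ± 0.22 without H100 replicate 6. Mt1 ran from 10.13 to 11.29 in H100 brains (median 10.83) and from 10.61 to 11.58 in H21 brains (median 11.04), again with overlap. Its difference was -0.22 ± 0.13 (95% interval -0.48 to 0.04, adjusted p = 0.81), and -0.15 ± 0.13 without replicate 6. In the brains without hypoxia the mean of Mt2 was 10.08 ± 0.55 in N100 and 10.55 ± 0.49 in N21 (SD, n = 9 each).

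The 2 metallothionein genes are neighbours, and their start regions are shown because they were higher together after hypoxia and because metallothionein genes are known for metal response elements, the sites at which the zinc-sensing factor MTF-1 binds. Capitals mark each match to the letters TGCACNC or TGCGCNC on either strand, with no overlap between matches. Both windows lie on the plus strand of GRCm38.p6 in RefSeq and run from 250 bases before to 50 bases after the annotated start, chr8:94172368-94172667 for Mt2 and chr8:94178839-94179138 for Mt1.
Mt2: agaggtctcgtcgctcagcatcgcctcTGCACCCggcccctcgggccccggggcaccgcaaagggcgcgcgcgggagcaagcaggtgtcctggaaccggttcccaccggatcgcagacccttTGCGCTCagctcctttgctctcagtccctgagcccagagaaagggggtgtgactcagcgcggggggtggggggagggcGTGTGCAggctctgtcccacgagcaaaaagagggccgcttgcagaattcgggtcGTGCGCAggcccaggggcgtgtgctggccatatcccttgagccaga
Mt1: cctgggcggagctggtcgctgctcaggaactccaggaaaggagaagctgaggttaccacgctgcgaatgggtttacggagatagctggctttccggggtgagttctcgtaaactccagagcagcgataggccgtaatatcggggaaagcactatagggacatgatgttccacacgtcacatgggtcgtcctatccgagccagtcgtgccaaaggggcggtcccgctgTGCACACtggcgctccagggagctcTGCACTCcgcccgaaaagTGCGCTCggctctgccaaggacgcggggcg
The Mt2 window held 4 matches and the Mt1 window 3. Of 32851 windows of this length in the table, 25.7% held at least 1 match and 7.11% at least 2. A match is a run of letters and not a shown binding site.

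Hmox1 ran from 6.38 to 8.19 in H100 brains (median 7.44) and from 6.82 to 7.86 in H21 brains (median 7.30), so that the H100 arrays spanned the whole H21 range. Its difference was -0.02 ± 0.20 (95% interval -0.42 to 0.39), and 0.07 ± 0.20 without H100 replicate 6. Lcn2 ran from 5.43 to 6.65 in H100 brains (median 6.15) and from 5.64 to 6.54 in H21 brains (median 6.29). Its difference was -0.12 ± 0.15, and -0.05 ± 0.14 without replicate 6, and in these genes too the groups overlapped. The remaining 3 genes differed by -0.24 ± 0.21 (Ms4a4a), -0.12 ± 0.17 (Ccl12) and -0.03 ± 0.11 (A2m), each with an interval that includes 0. Of the 7 differences, all were below 0 with all arrays, while without replicate 6 those of Hmox1 and A2m (0.02 ± 0.11) were above 0.

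Averaged over the 7 genes and set against the mean of the arrays without hypoxia in the same column block, H100 arrays ran from -0.07 to 0.95 (median 0.78) and H21 arrays from 0.61 to 1.05 (median 0.82). H100 replicate 6 was the lowest at -0.07, where N100 arrays ran from -0.37 to 0.09 and N21 arrays other than replicate 2 from -0.15 to 0.10. The other 10 H100 arrays lay between 0.28 and 0.95. H100 replicates 7, 8 and 9, all from the later columns, stood at 0.52, 0.28 and 0.36, below every H21 array. The array labelled N21 replicate 2 stood at 0.84, among the hypoxia arrays. Since the N21 and N100 arrays took part in choosing the genes, their values are a description.

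**Figure D1:**
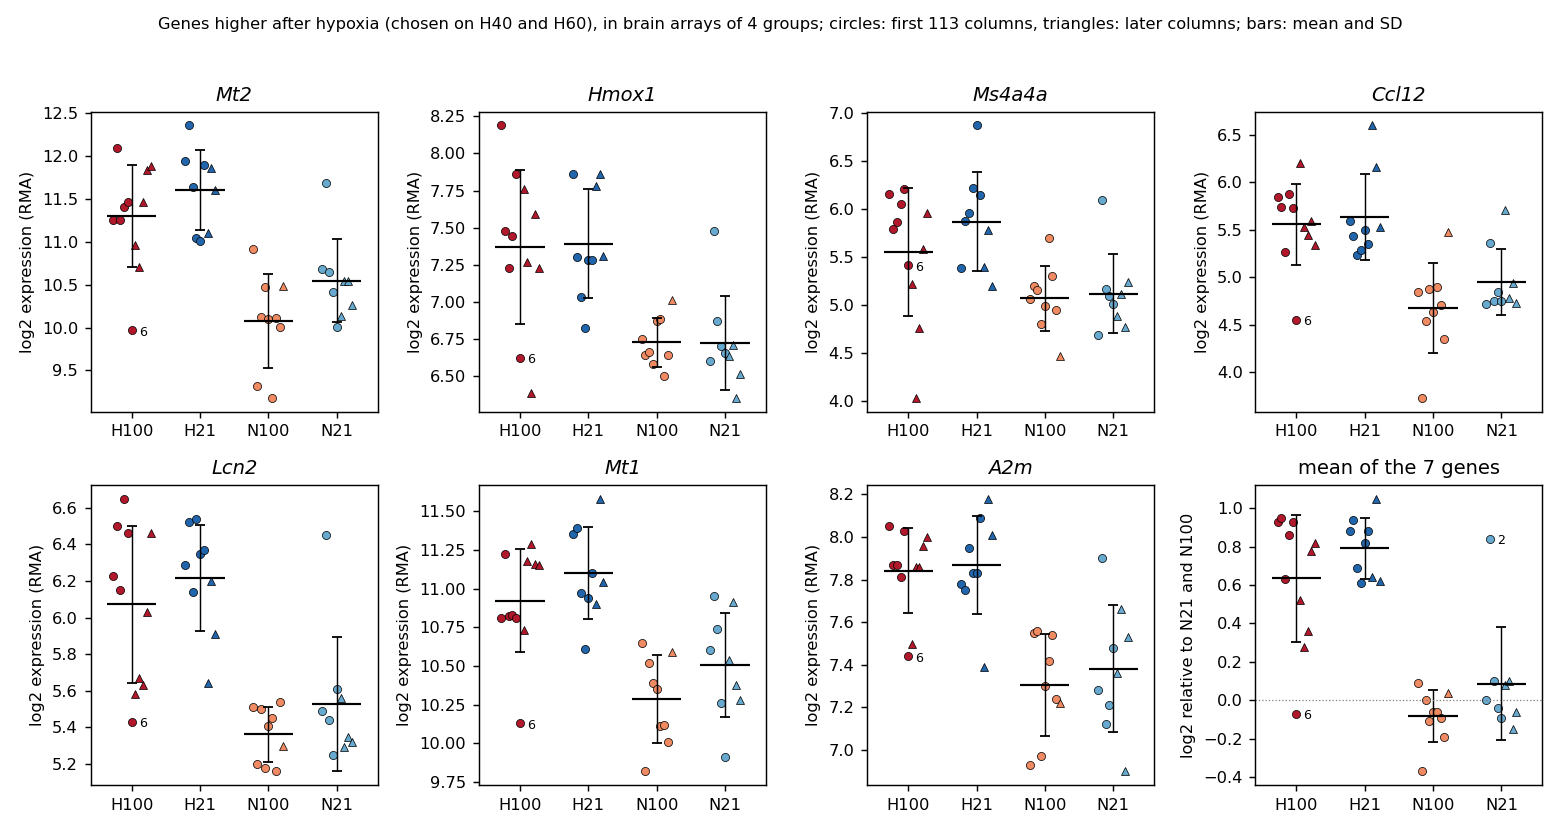
Log2 expression (RMA, vertical axes) of the 7 hypoxia-responsive genes and, in the last panel, their mean relative to the normoxia arrays, for H100, H21, N100 and N21 brain arrays (horizontal axes). Points are arrays, circles from the first columns and triangles from the later ones, and bars give the mean and SD. H100 and H21 overlap in every panel, and H100 replicate 6 (marked 6) lies with the normoxia arrays at -0.07 in the last panel.

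Set against N100, which received the same oxygen without hypoxia, H100 brains had 3 called genes of 19937 (0.015%), Mt2 (1.16 ± 0.23), Lcn2 (0.77 ± 0.15) and A2m (0.53 ± 0.11), each with an adjusted p of 0.042 in limma. Set against N21, H21 brains had 0 called genes (0%), with a smallest adjusted p of 0.16 and 350 genes at an unadjusted p under 0.05. In that comparison Mt2 differed by 1.08 ± 0.24, Lcn2 by 0.67 ± 0.15 and A2m by 0.48 ± 0.11. The difference between the 2 comparisons was 0.08 ± 0.34 for Mt2, 0.11 ± 0.22 for Lcn2 and 0.05 ± 0.16 for A2m, each within its error. The counts turned on arrays that went against their label. Without N21 replicate 2, H21 minus N21 had 6 called genes, 4 of them among the 7, with Mt2 at 1.24 ± 0.24 (adjusted p = 0.012, limma). Without H100 replicate 6, H100 minus N100 had 4 called genes, with Mt2 at 1.30 ± 0.23 (adjusted p = 0.0039, limma). The N100 and N21 arrays took part in choosing these genes, so the values are no independent test.

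Among the genes with the smallest p, the 12 higher ones differed by 0.21 to 0.34 and the 12 lower ones by -0.28 to -0.41, all with an adjusted p of 0.81. These 24 genes were picked by p in the comparison itself, so their intervals exclude 0 by choice. The largest fitted differences were those of Spatc1l, named for a centriole protein of sperm, and Nps, the precursor of neuropeptide S. Spatc1l ran from 4.32 to 5.12 in H100 brains (median 4.77) and from 4.60 to 5.56 in H21 brains (median 5.20), a difference of -0.41 ± 0.10. That is a 0.753-fold level (95% interval 0.654 to 0.867), at a level below the median of all brain values (6.07). Nps, whose peptide acts on arousal, ran from 3.55 to 4.53 in H100 brains (median 3.96) and from 3.91 to 4.72 in H21 brains (median 4.42), a difference of -0.41 ± 0.12. All its values too lay below the median of all brain values.

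Of the higher 12, Col3a1, the chain of type III collagen, ran from 7.78 to 8.44 in H100 brains (median 8.07) and from 7.0 to 8.25 in H21 brains (median 7.82). Its difference was 0.34 ± 0.11, and 0.23 ± 0.12 without H21 replicates 1 and 8, of which replicate 8 was the lowest array. Lamb2, a laminin chain of basement membranes, differed by 0.26 ± 0.07, with 10 of 11 H100 arrays above the H21 mean. Ctnnd1, the catenin that binds cadherins at cell contacts, differed by 0.26 ± 0.09 and by 0.14 ± 0.09 without H21 replicates 1 and 8.

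The other higher genes had varied roles. Peg3, an imprinted zinc finger gene expressed from the paternal copy, ran from 9.75 to 10.39 in H100 brains (median 9.95) and from 9.19 to 10.06 in H21 brains (median 9.81), a difference of 0.33 ± 0.11. Depp1, a target of FoxO transcription factors, ran from 5.73 to 6.42 in H100 brains (median 6.09) and from 5.61 to 6.04 in H21 brains (median 5.81). Its difference was 0.30 ± 0.09, and 0.35 ± 0.09 without H100 replicate 6, with 7 of 11 H100 arrays above every H21 array. Zfp612, a zinc finger gene, had 8 of 11 H100 arrays above every H21 array and differed by 0.30 ± 0.10. The rest were Gpr165, an orphan receptor (0.30 ± 0.10), Dgka, a diacylglycerol kinase (0.25 ± 0.08), Cpeb3, which binds messenger RNAs at synapses (0.22 ± 0.07), Nod1, a sensor of bacterial cell walls (0.22 ± 0.07), Ift140, a carrier protein of cilia (0.21 ± 0.07), and Dip2c (0.27 ± 0.09). Dip2c had 5 probe sets, and the other 4 differed by -0.01 to 0.13.

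Among the lower 12, Actc1, the cardiac muscle actin, had 9 of 11 H100 arrays below every H21 array. It ran from 6.28 to 6.84 in H100 brains (median 6.50) and from 6.70 to 7.0 in H21 brains (median 6.75), a difference of -0.29 ± 0.08. Rarres1, a gene induced by retinoic acid, ran from 4.47 to 5.04 in H100 brains (median 4.71) and from 4.91 to 5.38 in H21 brains (median 5.11). Its difference was -0.36 ± 0.10, and 8 of 11 H100 arrays lay below every H21 array. Btbd19 also had 8 of 11 H100 arrays below every H21 array (-0.36 ± 0.10).

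Osm, the cytokine oncostatin M of the interleukin-6 family, differed by -0.28 ± 0.09, and Milr1, a receptor of mast cells, by -0.37 ± 0.11. Serpina12, which encodes vaspin of fat tissue, differed by -0.35 ± 0.10, Ascl5, a transcription factor gene, by -0.32 ± 0.10, and the hair keratin gene Krt33b by -0.28 ± 0.08. Mean levels in H100 and H21 were 4.44 and 4.71 for Osm, 4.85 and 5.25 for Milr1, and 3.99 and 4.36 for Serpina12. Those of Rarres1 were 4.76 and 5.13, and all of these lie below the median of all brain values (6.07). Plp2 differed by -0.36 ± 0.11, and its other probe sets by -0.15 ± 0.07 and -0.44 ± 0.18. The pseudogene Btnl5-ps differed by -0.33 ± 0.09 at the probe set used and by 0.07 ± 0.13 and -0.01 ± 0.17 at the others. Its probes may also bind related butyrophilin-like genes. All 24 genes kept their sign without H100 replicate 6 and without H21 replicates 1 and 8. H100 replicates 8 and 9 were the lowest H100 arrays for Btbd19, Ascl5, Serpina12, Plp2, Milr1, Rarres1 and Btnl5-ps. They were the highest for Zfp612, Dgka and Ift140. The first columns alone hold neither array. There Btbd19, Ascl5, Serpina12 and Plp2 differed by -0.29 ± 0.11, -0.30 ± 0.10, -0.32 ± 0.12 and -0.18 ± 0.11. Milr1, Rarres1 and Btnl5-ps differed there by -0.28 ± 0.14, -0.34 ± 0.11 and -0.25 ± 0.11. Zfp612, Dgka and Ift140 differed there by 0.14 ± 0.11, 0.18 ± 0.09 and 0.15 ± 0.08.

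**Figure D2:**
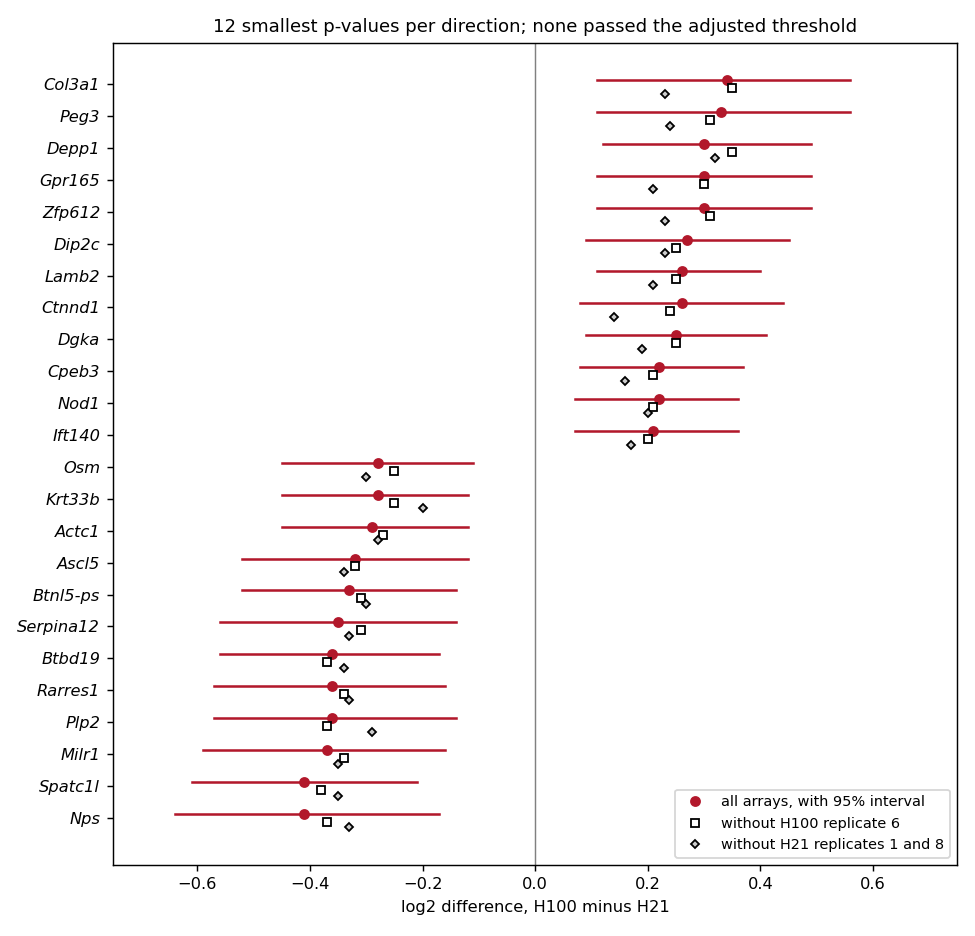
Log2 difference between H100 and H21 brains (horizontal axis) of the 12 genes with the smallest p in each direction (vertical axis). Circles with lines are the fit to all arrays with its 95% interval, squares the difference without H100 replicate 6 and diamonds without H21 replicates 1 and 8. No gene passed the adjusted threshold, and differences lay between -0.41 and 0.34.

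Pathways were described through 37 gene lists, whose 892 entries held 813 that were among the genes tested. In none of the lists was a member called, against 0% of all genes. For each list the median difference is given beside that of all genes, which was -0.01 (0.00 without H100 replicate 6, -0.01 without H21 replicates 1 and 8). Of all genes, 47.3% were above and 52.7% below 0.

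Of 30 HIF target genes outside glycolysis, 12 were above and 18 below 0, with a median of -0.03 (-0.03 without H100 replicate 6), and 2 were lower at an unadjusted p under 0.05. Bnip3 had the smallest p of the list and differed by -0.26 ± 0.11, and by -0.17 without H21 replicates 1 and 8. Bnip3l, a receptor for the removal of mitochondria, ran from 10.23 to 10.59 in H100 brains (median 10.44) and from 10.35 to 10.68 in H21 brains (median 10.51), a difference of -0.12 ± 0.05. Vegfa, the vessel growth factor of this list, picked for its role with its value seen, differed by 0.01 ± 0.07. Of 21 genes of glycolysis and glucose transport, 15 were above 0, with a median of 0.08. That median was 0.10 without H100 replicate 6 and 0.00 without H21 replicates 1 and 8. It was 0.01 in the first columns and 0.21 in the later ones. Slc2a3, the neuronal glucose transporter, averaged 10.80 ± 0.14 in H100 brains (SD, n = 11) and 10.58 ± 0.42 in H21 brains (SD, n = 9), with ranges that overlapped. Its difference was 0.25 ± 0.13, and 0.09 without H21 replicates 1 and 8.

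Subunits of oxidative phosphorylation, the chain that makes ATP in mitochondria, had the lowest median of all lists. Of 58 subunit genes, 48 were below 0 and 10 above, with a median of -0.12 and 2 genes lower at an unadjusted p under 0.05. The mean over the list ran from 9.66 to 10.13 in H100 brains (median 9.98) and from 9.75 to 10.45 in H21 brains (median 10.00), so that the ranges overlapped over most of their length. The highest arrays were H21 replicates 1 (10.45) and 8 (10.26), and H100 replicates 6 (9.67) and 9 (9.66) were the lowest. The median difference was -0.09 without H100 replicate 6 and -0.02 without H21 replicates 1 and 8, and it was -0.05 in the first columns and -0.23 in the later ones. Cox5a, a subunit of cytochrome c oxidase, ran from 9.32 to 10.03 in H100 brains (median 9.71) and from 9.54 to 11.08 in H21 brains (median 9.84). Its difference of -0.36 ± 0.17 was -0.09 without H21 replicates 1 and 8. Ndufv2, a subunit of complex I, differed by -0.29 ± 0.14, and by -0.16 without those arrays.

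Ribosomal protein genes were highest in the same H21 arrays. Of 27 such genes, 21 were below 0 with a median of -0.05, which was 0.01 without H21 replicates 1 and 8. It was 0.05 in the first columns and -0.26 in the later ones. Their mean was 11.28 in H21 replicate 1 and 11.19 in H21 replicate 8, against 10.60 to 11.04 in H100 arrays and 10.65 to 11.18 in the other H21 arrays.

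Genes of synaptic signalling were described next. Of 32 glutamate and GABA receptor genes, 26 were above 0 with a median of 0.08 (0.08 without H100 replicate 6, 0.04 without H21 replicates 1 and 8), and 3 were higher at an unadjusted p under 0.05. The list mean ran from 8.93 to 9.12 in H100 brains (median 9.03) and from 8.64 to 9.07 in H21 brains (median 9.0), where H21 replicates 1 (8.64) and 8 (8.81) were the lowest arrays of both groups. Grin3a, an NMDA receptor subunit, ran from 9.11 to 9.71 in H100 brains (median 9.24) and from 8.41 to 9.53 in H21 brains (median 9.09). Its difference was 0.27 ± 0.11, and 0.15 without H21 replicates 1 and 8. Grin2d, another NMDA receptor subunit, differed by 0.22 ± 0.10, and by 0.21 without them.

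Of 17 genes of glutamate uptake and the glutamine cycle, 15 were above 0 with a median of 0.10, which was 0.10 without H100 replicate 6 and 0.01 without H21 replicates 1 and 8. Slc38a2, a transporter of neutral amino acids such as glutamine, ran from 10.14 to 10.88 in H100 brains (median 10.56) and from 9.85 to 10.68 in H21 brains (median 10.29), a difference of 0.27 ± 0.10 that was 0.16 without H21 replicates 1 and 8. Abat, which breaks down GABA, ran from 10.40 to 10.57 in H100 brains (median 10.48) and from 8.76 to 10.80 in H21 brains (median 10.39). Its H100 values lay inside the H21 range, and the difference of 0.28 ± 0.16 was 0.04 without H21 replicates 1 and 8. Of 19 neurotrophin genes and receptors, 16 were above 0 with a median of 0.08, which was 0.09 without H100 replicate 6 and 0.05 without H21 replicates 1 and 8. Ret, a receptor for growth factors of the GDNF family, differed by 0.23 ± 0.09 and by 0.22 without those 2 arrays.

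**Figure D3:**
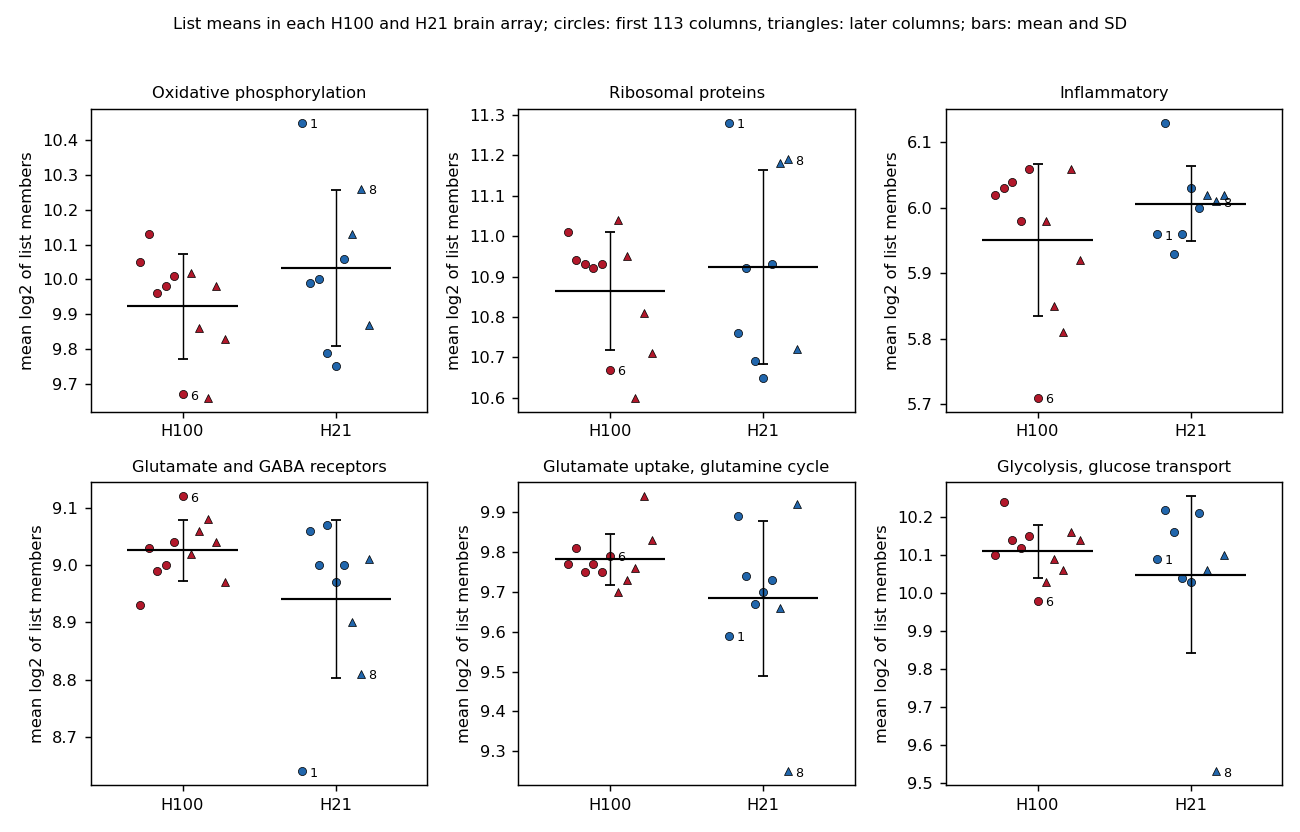
Mean log2 expression over the members of 6 lists (vertical axes) in each H100 and H21 brain array (horizontal axes), circles from the first columns and triangles from the later ones, with the mean and SD of each group. Numbers mark H100 replicate 6 and H21 replicates 1 and 8. H21 replicate 1 is the highest for oxidative phosphorylation (10.45) and the lowest for glutamate and GABA receptors (8.64).

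Cell type markers were compared next, with the limit that in whole tissue fewer cells of a type and less RNA per cell cannot be told apart. Of 30 neuron genes, 19 were above 0 with a median of 0.06, which was -0.01 without H21 replicates 1 and 8. The GABA-making enzymes Gad1 and Gad2 had the smallest p among them. Gad1 ran from 10.21 to 10.59 in H100 brains (median 10.44) and from 9.51 to 10.53 in H21 brains (median 10.32), a difference of 0.23 ± 0.10 that was 0.10 without H21 replicates 1 and 8. Gad2 differed by 0.22 ± 0.09, and by 0.13 without them.

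Of 24 astrocyte genes, 18 were above 0 (median 0.06, and 0.00 without H21 replicates 1 and 8), and of 22 genes of the oligodendrocyte lineage and myelin, 19 were above 0 (median 0.08, and 0.03 without them). Of 20 genes of the choroid plexus and ependyma, the tissue that makes cerebrospinal fluid and the lining of the ventricles, 15 were above 0. Their median of 0.10 was 0.09 without H100 replicate 6 and 0.09 without H21 replicates 1 and 8. Ttr, the thyroid hormone carrier of the choroid plexus, ran from 12.52 to 12.77 in H100 brains (median 12.59) and from 11.64 to 12.75 in H21 brains (median 12.46), a difference of 0.27 ± 0.14 with all 11 H100 arrays above the H21 mean.

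The list of pericytes, smooth muscle and meninges had 19 of 23 genes above 0 with a median of 0.06, and of 0.06 without H21 replicates 1 and 8. Its 4 members at an unadjusted p under 0.05 were Col3a1, Col1a2, Myh11 and Fn1. Col1a2, a chain of type I collagen, ran from 8.72 to 10.17 in H100 brains (median 9.15) and from 7.67 to 9.20 in H21 brains (median 8.92). Its difference was 0.44 ± 0.21, and 0.28 without H21 replicates 1 and 8. The blood-brain barrier and endothelium list had a median of 0.05 over 23 genes, which was -0.01 without H21 replicates 1 and 8. Plvap, which forms the diaphragms of leaky vessels, ran from 6.01 to 7.13 in H100 brains (median 6.82) and from 6.77 to 7.29 in H21 brains (median 7.11), a difference of -0.30 ± 0.11 that was -0.30 without H100 replicate 6 and -0.29 without H21 replicates 1 and 8.

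The lists of inflammation, microglia, interferon-stimulated genes and lymphocytes had medians below that of all genes with all arrays. In the first columns alone these medians were -0.03, -0.01, -0.01 and -0.07, in that order. In the later columns they were -0.09, -0.11, -0.15 and -0.06. The median of all genes was -0.01 in both, so microglia and interferon-stimulated genes were not below it in the first columns. Of 34 inflammatory cytokines, chemokines and their targets, 26 were below 0 with a median of -0.07, which was -0.05 without H100 replicate 6 and -0.06 without H21 replicates 1 and 8. The list mean ran from 5.71 to 6.06 in H100 brains (median 5.98) and from 5.93 to 6.13 in H21 brains (median 6.01), and H100 replicates 6 (5.71), 9 (5.81) and 8 (5.85) were the lowest. Icam1, an adhesion molecule for leukocytes, differed by -0.12 ± 0.07. Of 22 microglia genes, 16 were below 0 (median -0.05, and -0.03 without H100 replicate 6), and P2ry12, the purine receptor of resting microglia, differed by -0.20 ± 0.11. Of 19 interferon-stimulated genes, 14 were below 0 (median -0.06, -0.03 without H100 replicate 6 and -0.08 without H21 replicates 1 and 8), with Bst2, which tethers budding viruses, at -0.18 ± 0.08.

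Of 11 genes of T and B lymphocytes, 8 were below 0 with a median of -0.09 (-0.05 without H21 replicates 1 and 8), and Cd3g, a chain of the T cell receptor complex, differed by -0.22 ± 0.09 at a median log2 level of 3.84 in H100 brains and 4.16 in H21 brains. Both levels are below the median of all brain values (6.07), and the whole list averaged 4.74 ± 0.10 in H100 brains (SD, n = 11) and 4.83 ± 0.08 in H21 brains (SD, n = 9). Of the markers of tissues that brain should lack, 9 of 10 lung genes (median -0.08, and -0.05 without H100 replicate 6) and 9 of 11 lens and retina genes (median -0.05, and -0.01 without it) were below 0, while skeletal muscle genes had 6 above and 6 below 0 (median 0.00).

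Antioxidant and NRF2 target genes split, with 13 of 30 above 0 and 17 below (median -0.02, and 0.01 either without H100 replicate 6 or without H21 replicates 1 and 8), and 3 lower at an unadjusted p under 0.05. Osgin1, an oxidative stress induced gene, ran from 5.43 to 6.29 in H100 brains (median 5.89) and from 5.85 to 6.38 in H21 brains (median 6.16), a difference of -0.22 ± 0.08. Gstp1, a glutathione transferase, differed by -0.31 ± 0.15 and Prdx3, the peroxiredoxin of mitochondria, by -0.14 ± 0.07 (-0.09 without H21 replicates 1 and 8). Sod2, the mitochondrial superoxide dismutase, picked for its role with its value seen, differed by 0.00 ± 0.05. Metallothioneins and metal handling genes had a median of -0.02 over 10 genes, and Slc39a14, a zinc and iron importer, differed by 0.19 ± 0.09.

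For stress, growth and metabolism, the medians were -0.03 for 26 immediate-early genes and for 23 glucocorticoid-induced genes, -0.02 for 17 heat shock proteins, 0.03 for 25 genes of the unfolded protein response, 0.00 for 24 p53 targets and cell death genes, and 0.04 for 19 genes of cholesterol synthesis. Without H21 replicates 1 and 8 the heat shock median was 0.02 and those of the unfolded protein response and cholesterol synthesis 0.00 and 0.02. Dusp1, a phosphatase gene induced by stress and by glucocorticoids, ran from 7.86 to 8.41 in H100 brains (median 8.14) and from 7.23 to 8.37 in H21 brains (median 7.84), a difference of 0.27 ± 0.10 that was 0.14 without H21 replicates 1 and 8. Calr, a chaperone of the endoplasmic reticulum, differed by 0.16 ± 0.06 and Cryab, a small heat shock protein, by -0.24 ± 0.11.

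Ciart, a repressor in the circadian clock, had the lowest difference of any list member. It ran from 5.62 to 6.90 in H100 brains (median 6.33) and from 6.61 to 6.94 in H21 brains (median 6.87). The H100 arrays were spread far wider than the H21 arrays, and 10 of 11 lay below the H21 mean. The difference was -0.45 ± 0.17, with -0.42 without H100 replicate 6 and -0.48 without H21 replicates 1 and 8, while the median of the 18 clock genes was -0.03. Oxt, the precursor of oxytocin, differed by -0.22 ± 0.08 among 15 hypothalamic and pituitary hormone genes, whose median was -0.02.

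The remaining lists had medians of 0.04 for lipid and ketone fuel use, 0.01 for DNA replication, 0.00 for mitosis, for alpha-arrestins and FoxO brake genes and for skeletal muscle genes, -0.01 for angiogenic ligands and receptors, and -0.03 for erythroid genes and for neutrophil genes. Without H21 replicates 1 and 8 they were 0.00 for lipid and ketone fuel use, -0.02 for DNA replication, 0.02 for neutrophil genes and -0.06 for erythroid genes. DNA replication stood at 0.07 in the first columns and -0.12 in the later ones, and mitosis at 0.09 and -0.20.

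**Figure D4:**
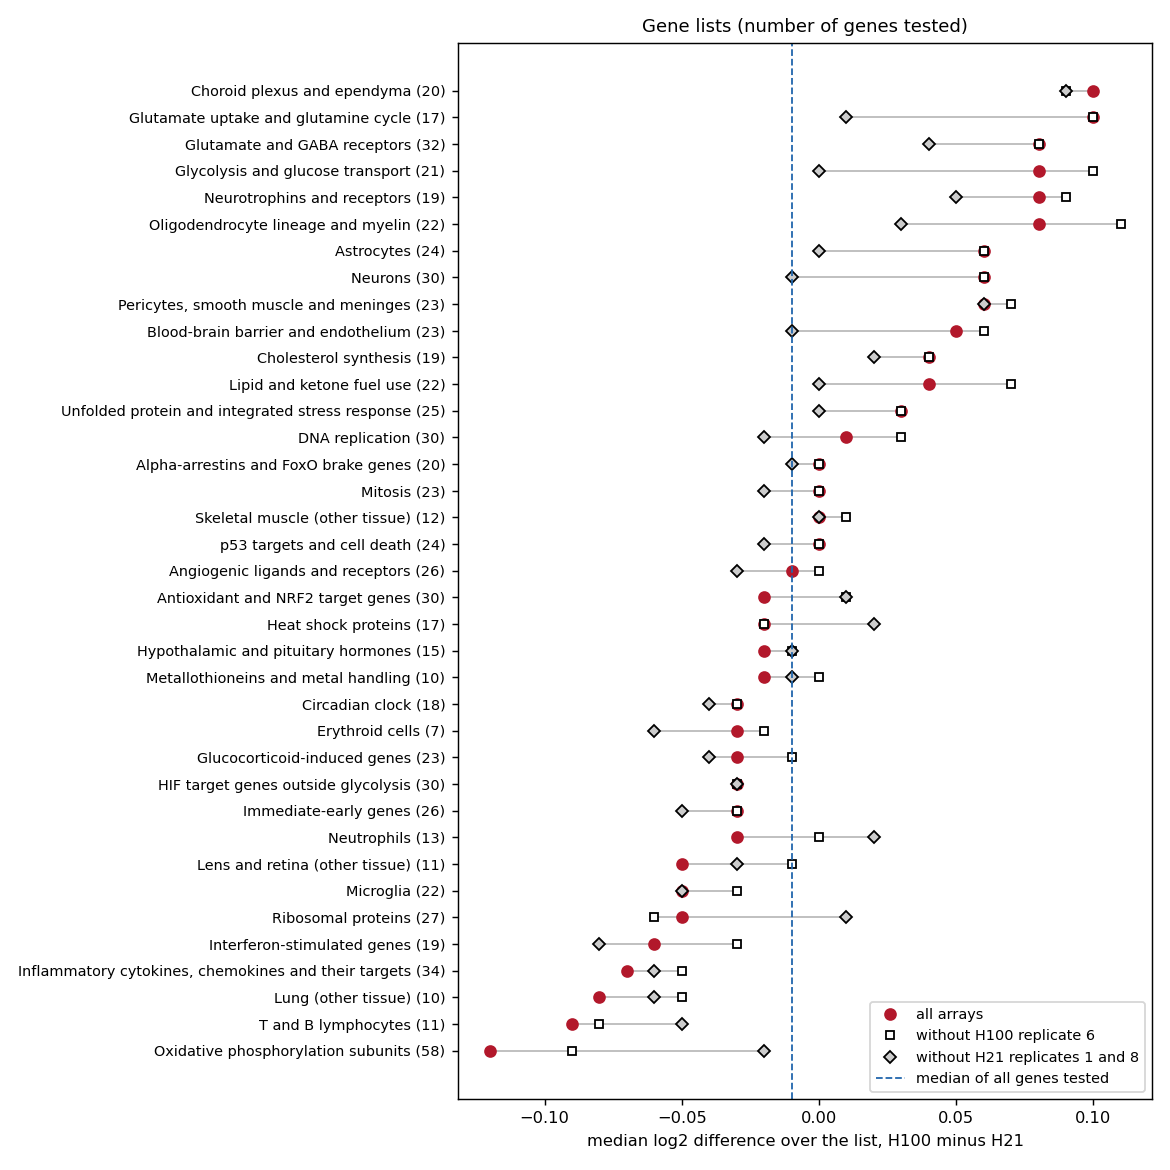
Median log2 difference between H100 and H21 brains (horizontal axis) of each of the 37 gene lists, with the number of genes tested in brackets (vertical axis). Circles are all arrays, squares leave out H100 replicate 6, diamonds leave out H21 replicates 1 and 8, and the dashed line is the median of all genes (-0.01). Oxidative phosphorylation lies at -0.12 with all arrays and at -0.02 without H21 replicates 1 and 8.

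Whether 100% oxygen acted differently after hypoxia than without it was tested as the difference between H100 minus H21 and N100 minus N21. No gene was called (0% of 19937, smallest adjusted p 0.66 in limma), and 289 genes had an unadjusted p under 0.05. N100 minus N21 itself also had 0 called genes, with 508 at an unadjusted p under 0.05. Btnl5-ps had the smallest p: H100 minus H21 was -0.33 ± 0.09 and N100 minus N21 was 0.30 ± 0.10, a difference of -0.63 ± 0.14 (95% interval -0.91 to -0.35, adjusted p = 0.66). The other named genes below 0 were Nrn1l, a relative of the neuritin gene (-0.30 ± 0.09), and Spatc1l (-0.49 ± 0.15). In the other direction stood Slc7a7, an amino acid transporter (0.44 ± 0.12), Magea6 (0.52 ± 0.15) and Gabre, a GABA receptor subunit (0.42 ± 0.13).

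For the lists the oxygen differences after and without hypoxia stood side by side as follows. Oxidative phosphorylation had a median of -0.12 in H100 minus H21 and -0.14 in N100 minus N21, and ribosomal proteins had -0.05 and -0.14. Without H21 replicates 1 and 8 the H100 minus H21 medians of these lists were -0.02 and 0.01. N21 replicate 7 had a median correlation to brain arrays of 0.9715, and no N100 minus N21 value is given without it. Glutamate and GABA receptors had 0.08 in both, while the choroid plexus and ependyma list had 0.10 after hypoxia and -0.07 without it. Across 19937 genes the differences correlated at r = 0.35, which was 0.30 without H100 replicate 6 and 0.14 without H21 replicates 1 and 8. Genes are not independent replicates, and both comparisons share the fit's block term and the normalization, with 8 of 9 N100 arrays in the first columns against 5 of 9 N21 arrays.

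Intermediate oxygen was set against the same H21 arrays, so these values share their controls with those above. At 40, 60 and 100% oxygen after hypoxia, the difference from H21 was -0.25 ± 0.24, -0.52 ± 0.23 and -0.33 ± 0.23 for Mt2, and -0.11 ± 0.13, -0.31 ± 0.13 and -0.22 ± 0.13 for Mt1. For Hmox1 it was -0.08 ± 0.21, 0.29 ± 0.20 and -0.02 ± 0.20. The medians of the oxidative phosphorylation list were 0.00, -0.09 and -0.12 in the same order of oxygen, and those of the glutamate and GABA receptors 0.01, 0.09 and 0.08. Without H21 replicates 1 and 8 the medians of these lists at 100% oxygen were -0.02 and 0.04. Those at 40 and 60% are not given without these controls, so no trend with oxygen is read from them. For Actc1 the differences were -0.20 ± 0.09, -0.27 ± 0.08 and -0.29 ± 0.08. H40 held 9 arrays after the array with an eye profile was left out.

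The difference between H100 and H21 in brain was also set against that in lung and in eye. No gene was called for brain minus lung (0%, smallest adjusted p 0.29 in limma, 508 genes at an unadjusted p under 0.05) or for brain minus eye (0%, smallest adjusted p 1, 462 genes). Among the named genes, Serpina12 differed by -0.35 ± 0.10 in brain and by 0.12 ± 0.09 in lung, a difference of -0.46 ± 0.13 (adjusted p = 1). Cd4, the T helper cell receptor, differed by 0.07 ± 0.08 in brain and by -0.43 ± 0.12 in lung, and Kcnj14, a potassium channel gene, by 0.32 ± 0.15 in brain and -0.35 ± 0.16 in lung. Fcho1, Fbxl14 and Dnajc24 were the other genes with the smallest p against lung, at 0.45 ± 0.15, -0.33 ± 0.11 and -0.31 ± 0.10 for brain minus lung. Against eye these were Cfap65, Iapp, which encodes amylin, and Flg2 (0.36 to 0.42 for brain minus eye) and, with the opposite sign, Pth, the parathyroid hormone gene, Syce1 and Hoxc10 (-0.45 to -0.53).

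The 95% intervals of Mt2 and Mt1 included 0 in brain and lung, and in eye that of Mt2 did, while that of Mt1 ran from -0.50 to -0.01 (adjusted p = 0.74, limma). Mt2 differed by -0.33 ± 0.23 in brain, -0.17 ± 0.21 in lung and -0.32 ± 0.21 in eye, and Mt1 by -0.22 ± 0.13, -0.04 ± 0.13 and -0.25 ± 0.13. For Mt2 the 95% interval of brain minus lung was -0.75 to 0.43 and that of brain minus eye -0.60 to 0.59, so that a difference between tissues inside these bounds was not detectable with these arrays. The oxidative phosphorylation list had medians of -0.12 in brain, 0.02 in lung and 0.00 in eye, and T and B lymphocyte genes -0.09, -0.31 and 0.04.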

How the data were processed

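RNA of lung, brain and eye was measured on 177 arrays (Affymetrix Mouse Gene 1.0 ST). The authors deposited log2 values after RMA, per the submitters' processing notes, which removes background, gives all arrays 1 distribution and combines the probes of a set. Its version is not given in the sources used here. The median differed between tissues (6.07 in brain, 6.25 in lung, 6.35 in eye), so tissues were compared only as differences of differences. Per the labels' protocols, extraction followed a blood protocol with a Ficoll gradient, whereas the design text names tissue in RNAlater. The number of arrays limits the precision.

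Of 34760 probe sets, 21640 had exactly 1 gene symbol in the platform annotation, 1321 several and 11799 none. Current symbols came from RefSeq for 21553 of the first kind. The probe set with the highest brain mean stood for each of 19937 genes. Two-sided tests came from limma 3.58.1 (lmFit, then eBayes) in R 4.3.3, with 6 group means and a term for the column block. The limma script was tested on simulated data. The tissue fit had a block term for each tissue and left out 1 array of each tissue with the profile of another.

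Groups and replicate numbers came from the titles. The named genes are the 12 with the smallest p per direction (3 for other comparisons) where none was called, without predicted genes, chemosensory receptors, small RNAs, Y-linked genes and Xist. List members were drawn from the 4 with the smallest p of a list, apart from those said to be picked for their role. The choice among these 4 was not by rank, and for some lists no member is given. Members, lists and rule were chosen with earlier results of these data known. Alternatives were no block, 3 blocks, each block alone, the H40 array with an eye profile included, H100 and H21 alone, the replicate number as a block, array quality weights, the dimmest 40% of genes left out, quantile normalization again, every probe set, a sex covariate and each array left out in turn. Added after seeing the data were the removal of H21 replicates 1 and 8, the removal of 4 arrays that went against their label, the normoxia comparisons without H100 replicate 6 or N21 replicate 2, and the comparison that chose the 7 hypoxia-responsive genes.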

Additional observations from a re-analysis of the deposited data

Results flagged for a closer look

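Single arrays far from the rest of their group were looked for in 72 groups of values, by the gap to the nearest array against the whole range, and 9 were found. Chance gives about 1 in 20.

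H21 replicate 8 stood apart for 5 measures. It had the lowest H21 value of Zfp612 (6.29, others 6.68 to 6.94), of Col3a1 (7.0, others 7.64 to 8.25) and of Ascl5 (6.01, others 6.29 to 6.56). Its list means were lowest for glycolysis and glucose transport (9.53, others 10.03 to 10.22) and for glutamate uptake and the glutamine cycle (9.25, others 9.59 to 9.92).

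Other H21 arrays stood apart for 1 list each. Replicate 2 was highest for inflammatory cytokines, chemokines and their targets (6.13, others 5.93 to 6.03), replicate 7 was highest for DNA replication (7.62, others 7.01 to 7.27), and replicate 9 was lowest for erythroid genes (6.69, others 6.78 to 6.83). Among arrays without hypoxia, N21 replicate 2 had a mean of 0.84 over the 7 hypoxia-responsive genes, against -0.15 to 0.10 in the other N21 arrays.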

How the results depend on the processing

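Between H100 and H21 brains 0 genes were called under every alternative run and with any 1 array left out, and the smallest adjusted p among these fits was 0.22 (without H21 replicate 6). The unadjusted count ran from 497 (first columns alone) to 1599 over the alternatives tested on genes, and from 697 to 1435 with 1 array left out. The test of oxygen after against without hypoxia and the 2 tissue differences also had 0 called genes under each alternative run for them. Their unadjusted counts were 289 (58 to 787), 508 against lung (252 to 732) and 462 against eye (101 to 664). With the replicate number as a block, 0 genes were called, 1599 had an unadjusted p under 0.05 and the smallest adjusted p was 0.47. The numbers were not taken to pair H100 with H21 arrays of brain, since only 2 of 9 same-numbered pairs correlated above 0.1 (range -0.32 to 0.59).

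Of 1011 values of 31 named genes, 20 changed sign, all from differences near 0 or below their error. Hmox1 was at 0.01 with 3 blocks, 0.21 in the first columns, 0.28 with array weights, 0.01 with sex, 0.12 without H21 replicates 1 and 8, 0.07 without the 4 arrays, and -0.10 to 0.08 with 1 array left out, where the values that changed sign ran from 0.00 to 0.08. Ccl12 was at 0.10 in the first columns and 0.11 with array weights. A2m was at 0.01 without H21 replicates 1 and 8, 0.02 without the 4 arrays and -0.09 to 0.02 with 1 array left out, with sign changes from 0.00 to 0.02. The cause was not tested. The count of hypoxia-responsive genes was 7, against 4 with the H40 array of eye profile and 27 without the 4 arrays that went against their label, which were picked on these genes. Without them H100 minus N100 had 9 called genes, against 3, and H21 minus N21 had 6, against 0.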
